A study of Homo sapiens with 24 samples.

Results

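The 8 genes of the cytosolic chaperonin CCT were examined in 6 lists of RNA windows bound by SNRNP200, CAPRIN or G3BP1: TCP1, CCT2, CCT3, CCT4, CCT5, CCT6A, CCT7 and CCT8. All windows that the lists assign to these symbols were taken, which gave 532 distinct windows. The genes are 8 of 9792 with a window in any list. Windows are stretches of at most 100 bases of a transcript on hg38 in which immunoprecipitated (IP) reads exceeded input reads in eCLIP, a method that crosslinks proteins to RNA and sequences the bound fragments. Each listed window has a q value of at most 0.2.

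CCT is a double ring in which every ring holds the same 8 different subunits. TCP1 encodes the alpha subunit, CCT2 beta, CCT3 gamma, CCT4 delta, CCT5 epsilon, CCT6A zeta, CCT7 eta and CCT8 theta. The closed chamber folds actin and tubulin, which the cofactor prefoldin hands over. The messages are abundant and spliced from many short exons, so they can be met both by a nuclear splicing factor and by proteins that hold mRNA in the cytoplasm. SNRNP200 is the RNA helicase that activates the spliceosome. G3BP1 and proteins of the CAPRIN family bind mRNA and build stress granules.

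The libraries came from HEK293, a human embryonic kidney line, with 2 input and 2 IP samples in each experiment. SNRNP200 was mapped in whole cells without treatment, in whole cells given 500 µM arsenic, in the cytoplasmic fraction without treatment and in the cytoplasmic fraction with arsenic. CAPRIN and G3BP1 were mapped without arsenic by their sample characteristics, although the treatment protocol names arsenic for all 24 samples. All protocols name a single antibody number, and the protein in each title was used. The labels do not say that replicates were separate cultures, so p-values measure the spread between these samples. The lists give IP and input reads summed over replicates, and a log2 enrichment for the lowest and the highest replicate. Library totals were not used here, so depth is known only as reads per window.

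The input reads of the arsenic experiments were found to be shared. Of 882 windows in both the whole-cell and the cytoplasmic arsenic list, 87.2% carried the same input count, and the other 113 differed by at most 9 reads. Among windows with at least 10 input reads in either list the share was 84.1%. Every other pair of lists had equal input counts in 1.13% to 14.4% of shared windows. All 14 CCT windows in both arsenic lists had identical input counts, while their IP counts were equal in 1. The labels give these experiments separate input samples. The input reads of both were therefore counted as 1 set here, and no comparison between the arsenic lists has an input of its own on each side. Which fraction that input came from was not tested.

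The 2 RefSeq sequences that follow are shown as the CCT5 windows most read for CAPRIN and G3BP1 and for SNRNP200 in whole cells. They lie on the plus strand (GRCh38.p14) with another listed window of 5 coding bases between them, chr5:10250441-10250445, which had 25 IP reads and no input read in untreated whole cells and 30 and 2 with arsenic. The first opens with the start codon, in capitals, at chr5:10250341-10250440, and was the most read CCT5 window of both CAPRIN (64 IP and 2 input reads) and G3BP1 (18 and 5). The second opens with the GT of the 5′ splice site, in capitals, at chr5:10250446-10250536, and was the most read CCT5 window of SNRNP200 in whole cells (272 and 7 reads untreated, 259 and 8 with arsenic).
CCT5 start codon window: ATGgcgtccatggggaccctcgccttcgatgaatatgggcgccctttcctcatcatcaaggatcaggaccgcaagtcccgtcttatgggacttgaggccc
CCT5 5′ splice site window: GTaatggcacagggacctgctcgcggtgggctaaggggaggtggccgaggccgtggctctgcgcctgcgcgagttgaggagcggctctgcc
The start codon window was also listed for SNRNP200 in whole cells (mean log2 2.92 untreated and 3.59 with arsenic). The splice site window was in neither the CAPRIN nor the G3BP1 list.

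All 8 genes had windows for SNRNP200 in whole cells, and most lay at splice junctions or in coding exons. The untreated list held 454 CCT windows, from 45 in TCP1 to 74 in CCT2, and the arsenic list held 364, from 27 in CCT8 to 62 in CCT2. Being listed is common there: 92.4% of the 9792 genes had a window untreated and 83.8% with arsenic. In the cytoplasm without treatment, where 18.6% of genes were listed, 5 CCT genes had 13 windows (CCT2, CCT3, CCT4, CCT5 and CCT7). With arsenic 25.2% of genes were listed, and all 8 CCT genes had windows, 33 in all. CAPRIN listed all 8 genes with 114 windows, against 44.6% of genes. G3BP1 listed CCT2, CCT3, CCT4, CCT5 and CCT7 with 31 windows, against 12.6% of genes. Absence from a list means only that no window passed the threshold.

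**Figure D1:**
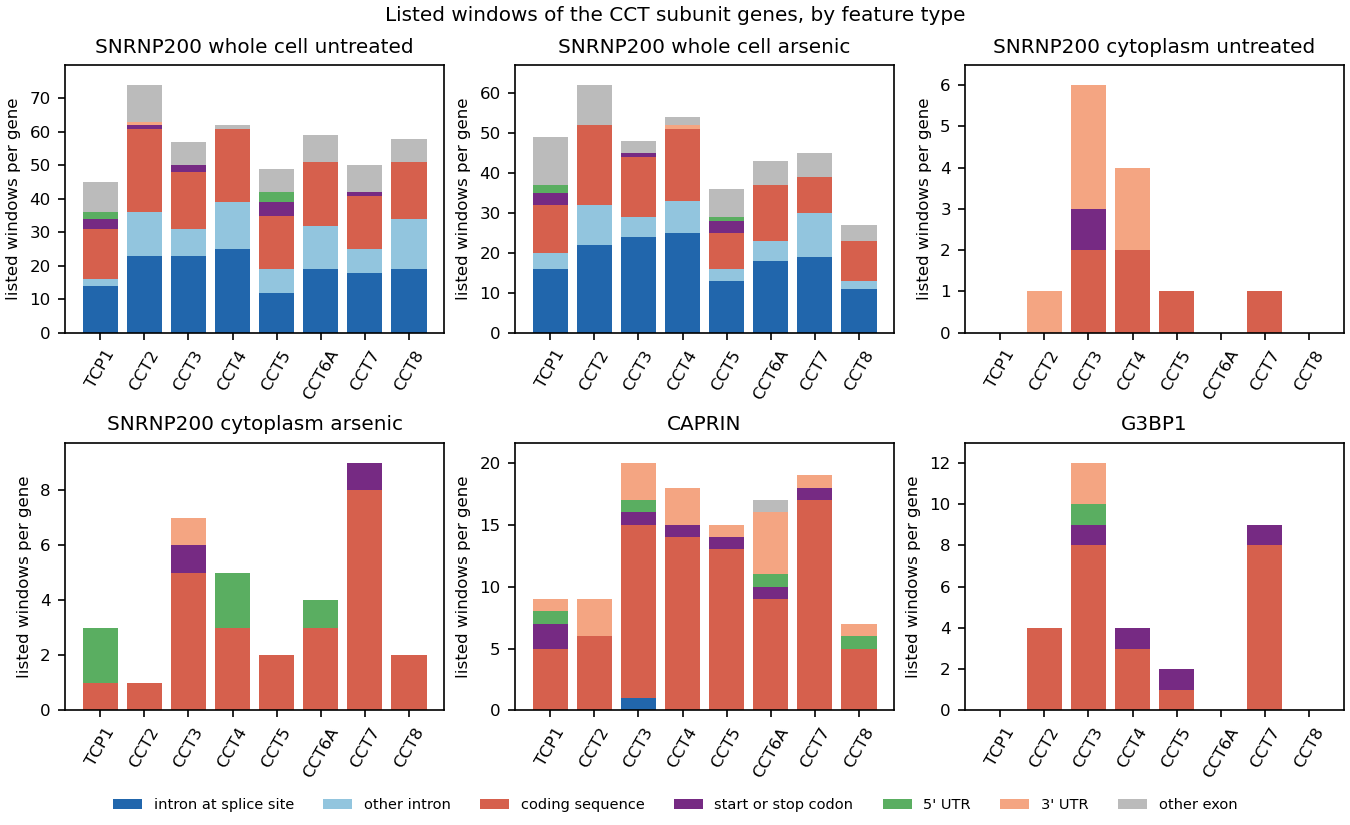
Listed windows per CCT gene (y axis, number of windows, scaled for each panel) in the 6 lists, stacked by leading feature type. Intron windows make up large parts of the whole-cell bars and appear in 1 CAPRIN bar, while cytoplasmic and G3BP1 bars hold exon windows.

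The intronic side of splice sites took 153 of the 454 untreated whole-cell windows (33.7%, exact 95% interval 29.4 to 38.3), beside 35.7% over all windows of that list. With arsenic these were 148 of 364 (40.7%, 35.6 to 45.9), beside 41%. Of the untreated windows 73 were at 5′ splice sites and 72 at 3′ splice sites, with a further 8 that touched both. Coding sequence took 147 windows untreated (32.4%, 28.1 to 36.9, all windows 38.7%) and 107 with arsenic (29.4%, 24.8 to 34.4, all windows 35.7%). In both conditions the share of all windows lay inside the CCT interval for splice sites and above it for coding sequence. The intervals count neighbouring windows of 8 genes as independent, so they do not test a difference. Weighted by IP reads, coding sequence took 41% of the CCT windows untreated and 35.1% with arsenic. No such weighting was made over all windows. Windows led by an mRNA exon annotation other than coding sequence or UTR were 11.5% of the CCT windows untreated (8.67 to 14.7), beside 4.26% of the list. All these shares count the leading annotation only. Such exon windows can carry a splice site and an intron too, as in CCT2 at chr12:69592160-69592236. An intron was among the annotations of 321 CCT windows untreated (70.7%) and 270 with arsenic (74.2%). That share was not taken over all windows. The 3′ UTR, by contrast, held 1 of 454 windows.

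Listed enrichment had higher medians at the splice sites than in coding sequence, in the CCT genes as in the whole lists. The median listed log2 was 4.20 at the 73 untreated 5′ splice site windows, 4.06 at the 72 3′ splice site windows and 3.06 in the 147 coding windows. With arsenic these medians were 4.46, 3.96 and 2.78. Raw reads were higher in coding sequence, in the input more so than in the IP. The medians were 61 IP and 13 input reads in a coding window and 40 and 4 at a 5′ splice site, both untreated. Over all windows of the untreated list the medians were 3.90, 3.72 and 3.30 in the same order of features, and with arsenic 3.99, 3.84 and 3.32. A coding window of the whole untreated list had a median of 29 IP and 4 input reads. CCT coding windows thus had both more IP and more input reads than the list as a whole, and a lower listed enrichment. The offset between listed log2 and the read ratio varies between windows, as given below, and its part in these medians was not tested.

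The strongest untreated CCT window was a 3′ splice site of CCT5 at chr5:10261460-10261559, with 111 IP and 2 input reads and replicate log2 values of 5.05 and 7.6. CCT4, the delta subunit, had the next, a 5′ splice site at chr2:61888358-61888380 on the minus strand. It held 214 IP and 3 input reads untreated, with replicates at 5.16 and 6.90. With arsenic it held 186 IP reads and 1 input read and was the highest CCT window of that list, with replicates at 6.84 and 6.87. These 2 ranges overlap, because the arsenic values fall inside the untreated ones. CCT8 had its highest untreated window at a 5′ splice site, chr21:29070147-29070246, with 34 IP reads and no input read (5.58 and 6.46). CCT7 peaked at chr2:73239797-73239883, directly downstream of a coding window. It is annotated both as mRNA exon and as intron at a 5′ splice site. This window had 64 IP reads and 1 input read untreated (4.37 and 6.82) and 71 and none with arsenic (6.39 and 6.57).

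Summed over the listed windows of a gene, untreated IP reads per input read ran from 4.92 in TCP1 (2209 IP and 449 input reads over 3707 bases, 95% interval 4.44 to 5.46) to 7.98 in CCT7 (2664 and 334 over 4091 bases, 7.12 to 8.96). Those intervals do not overlap, and they cover counting error only. The median log2 of the windows was 3.22 in TCP1 and 3.71 in CCT7. Replicates of a CCT window lay a median of 0.73 apart on the log2 scale, beside 0.81 over the list. CCT6A reads are less certain than the others, because the related copies CCT6P1 and CCT6P3 also had whole-cell windows, 43 untreated and 19 with arsenic. No other gene shared a CCT window. ACAT2, on the opposite strand, had up to 2 windows inside TCP1.

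Along the genes, whole-cell windows were spread over the whole length, while CAPRIN windows lay toward the end. With each gene cut into 3 parts of equal length, 130 untreated whole-cell windows were in the first part, 163 in the middle and 161 in the last. CAPRIN had 16, 30 and 68. CCT3, the gamma subunit, had 14 of its 20 CAPRIN windows in the last part. The untreated cytoplasmic list had none of its 13 windows in the first part and 11 in the last. With arsenic the cytoplasmic windows numbered 9, 8 and 16. Coding exons are not evenly spaced along these genes, and the part of that spacing in the pattern was not tested.

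**Figure D2:**
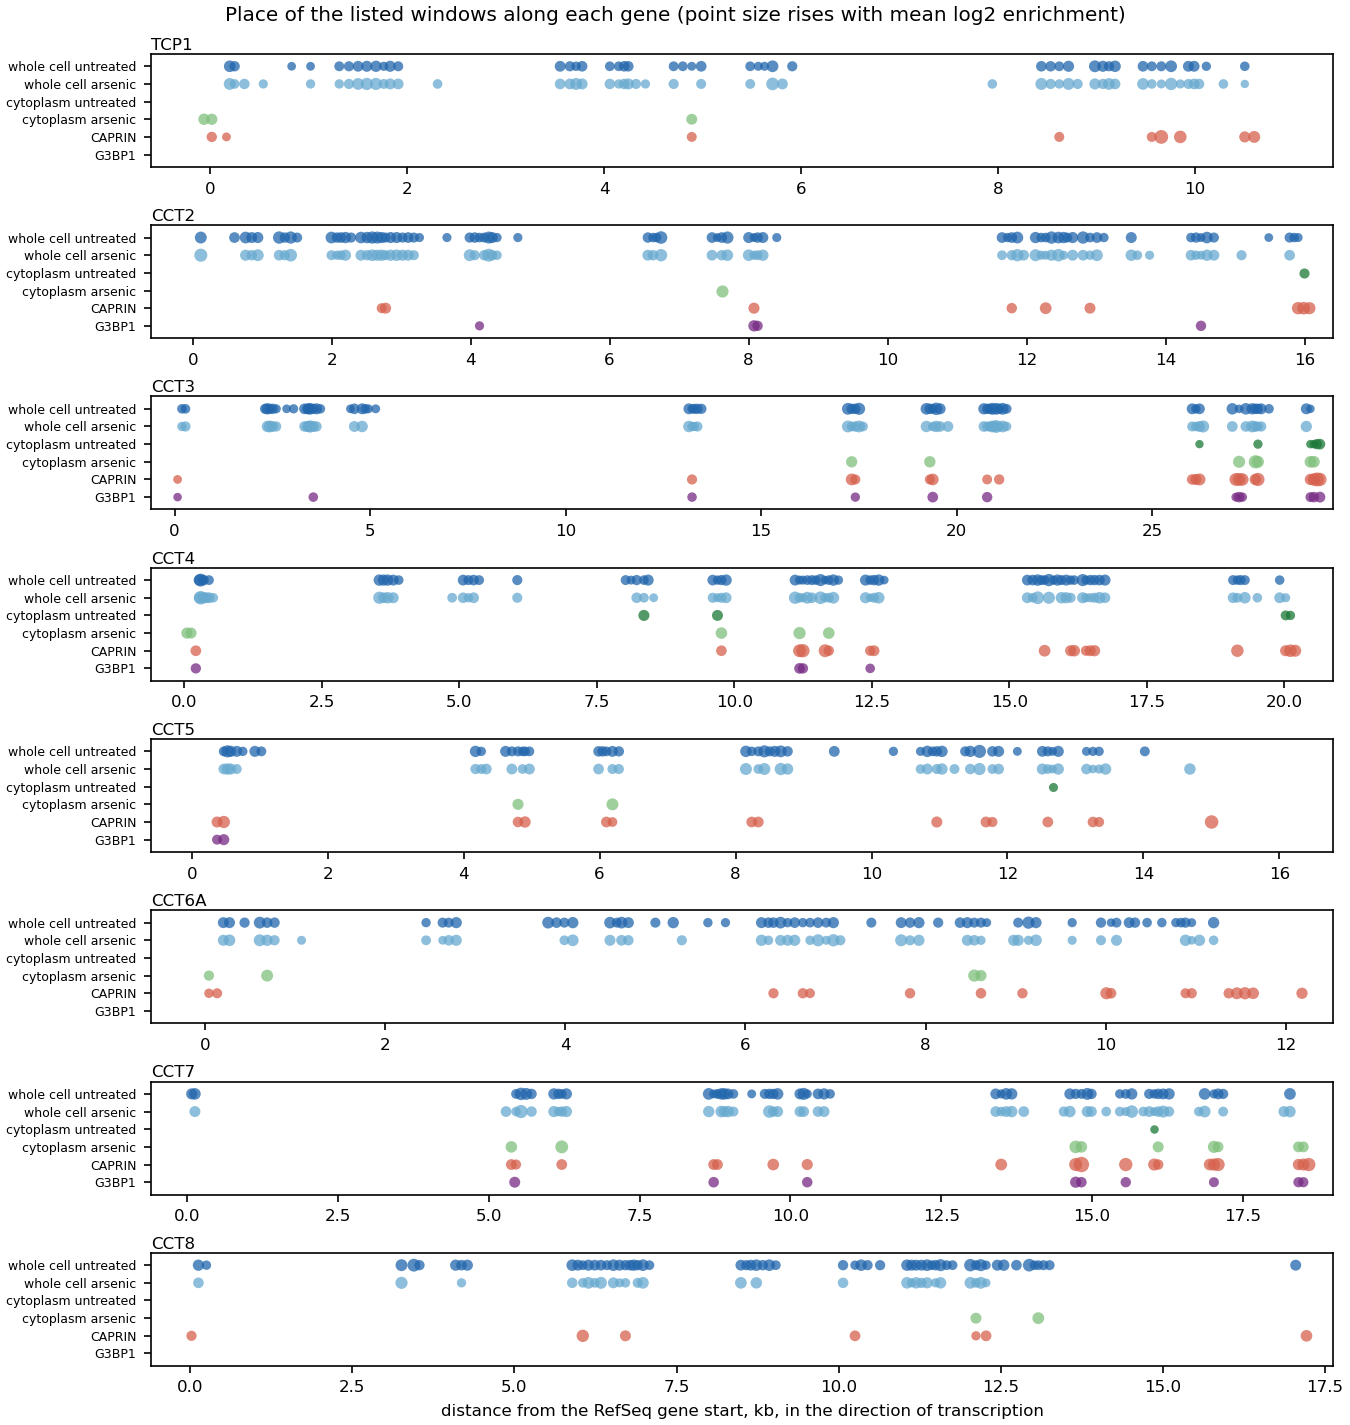
Position of every listed CCT window, in kb from the RefSeq gene start (x axis), with 1 row per list and larger points for higher mean log2. Whole-cell windows are spread along each gene, and cytoplasmic, CAPRIN and G3BP1 windows are fewer. Of the 114 CAPRIN windows 79 were also listed in untreated whole cells (69.3%, beside 28% of all CAPRIN windows).

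With arsenic 7 of the 8 genes had fewer whole-cell windows, to unequal extents. CCT8, the theta subunit, went from 58 to 27 windows, and each of the 27 was also listed untreated. TCP1, the alpha subunit, went from 45 to 49. It was the 1 CCT gene with more windows after arsenic, which held for 11.3% of the 7975 genes in both lists. In the other 6 the number with arsenic was between 0.729 (CCT6A) and 0.900 (CCT7) times that without. Of the untreated windows of CCT6A 64.4% were listed again with arsenic, and of those of CCT7 76%. Pooled, CCT genes had 0.802 times as many windows with arsenic, beside 0.646 for the whole lists and a median of 0.65 over 3173 genes with at least 20 untreated windows. The ratio of CCT8 was 0.466, under the 25th percentile of 0.478, and that of TCP1 was 1.09, over the 75th percentile of 0.815. Both lists share 323 CCT windows, 71.1% of the untreated and 88.7% of the arsenic ones, beside 50.1% and 77.4% for all windows.

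On the windows that both lists hold, reads of these 2 genes differed in opposite directions, in the input as well as in the IP. The 27 shared CCT8 windows summed to 1581 IP and 226 input reads untreated, and to 921 and 160 with arsenic. For the 38 shared TCP1 windows the sums were 1988 and 366 untreated, and 3350 and 583 with arsenic. CCT3 stood between them, with 4208 IP and 608 input reads untreated against 4218 and 621. These sums are raw reads without correction for library depth, and the arsenic input is the set shared with the cytoplasmic arsenic list. Whether RNA level set the number of listed windows was not tested.

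In listed enrichment the median difference of a gene ran from -0.36 to 0.18. CCT8 was lower with arsenic in 19 of 27 windows, with the lowest of these medians. TCP1, with the highest, was higher in 21 of 38, and CCT4 in 30 of 48, with a median of 0.16 log2. Over all 323 windows 154 were higher with arsenic and the median difference was -0.04, beside -0.01 over 91143 shared windows. Replicate ranges were apart in 28.8% of CCT windows and in 32.5% of all.

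**Figure D3:**
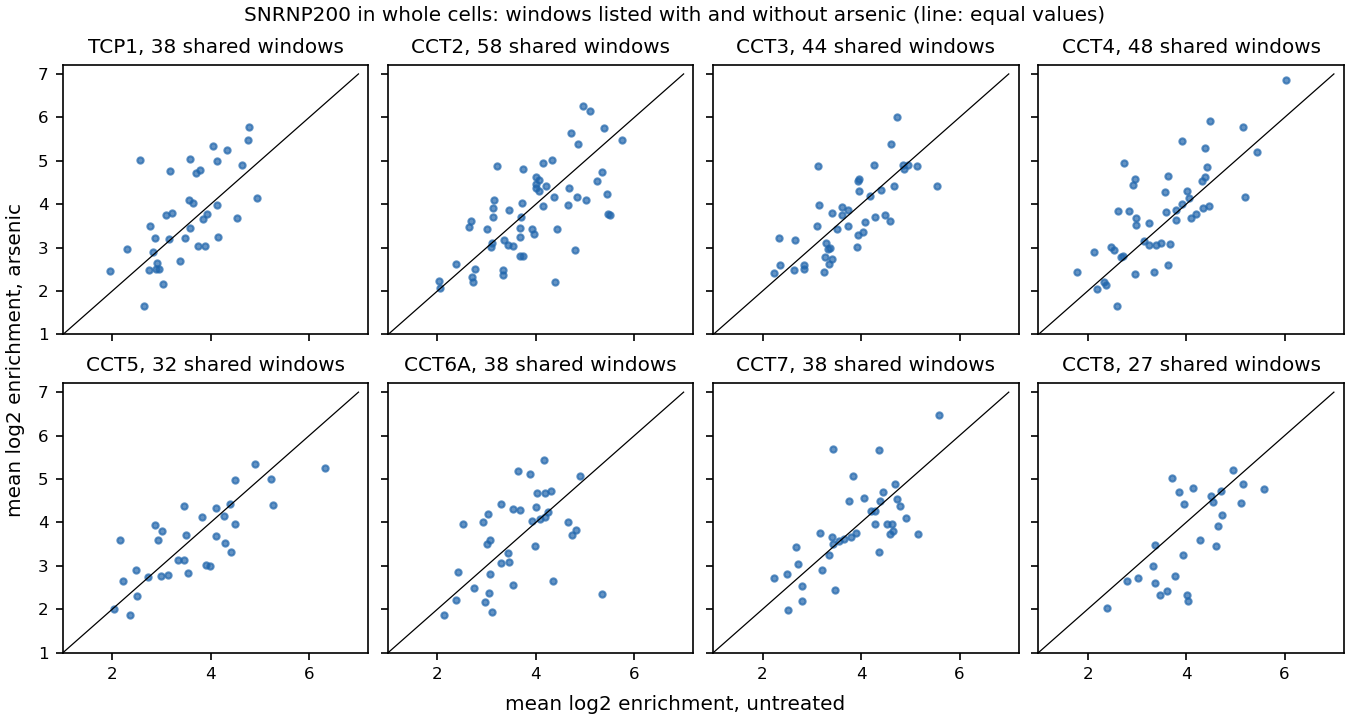
Mean log2 enrichment in whole cells with arsenic (y axis) against untreated (x axis), 1 point per shared window and 1 panel per gene, with a line of equal values. Points lie on both sides of the line in every gene, with 19 of the 27 CCT8 points below it.

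For the test, each gene was represented by the shared window with the most IP reads, and limma was run over 7408 such windows on the lowest and highest replicate of each list. None passed at an adjusted p of 0.05 (0% called, 284 with an unadjusted p under 0.05), and none of the 8 CCT windows had an unadjusted p under 0.05. With the minimum of 20 IP and 10 input reads, CCT8 was represented by chr21:29062490-29062556 and differed by -1.69 (limma unadjusted p = 0.0269, adjusted p = 0.996), and CCT2 by another window with 0.50. The 5′ splice site of CCT2, the beta subunit, at chr12:69585525-69585624 read 4.72 and 5.20 untreated and 5.65 and 6.89 with arsenic. That is a difference of 1.31 log2 (SE 0.87, limma adjusted p = 0.99), with 3 input reads and 1 behind it. The coding window of CCT8 at chr21:29062328-29062415 read 3.59 and 4.26 untreated and 3.03 and 3.48 with arsenic, a difference of -0.67 (SE 0.85, limma adjusted p = 0.99). In these 2 genes of 8 the replicate ranges did not overlap, while 32.1% of all tested windows had ranges apart. TCP1 was represented by 1 of its 2 start codon windows in these lists, chr6:159788058-159788141, which lies 1461 bases from the RefSeq gene start. This window had 201 IP and 31 input reads untreated and 370 and 34 with arsenic, but its replicates, 3.62 and 3.96 against 3.85 and 5.72, overlapped. CCT5 at the splice site printed above differed by -0.10 (4.19 and 4.33 untreated, 4.05 and 4.26 with arsenic), with overlapping replicates. With 2 samples a side an exact permutation test cannot go below p = 0.333.

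In the cytoplasm the leading annotation of every CCT window of SNRNP200 was an exon. The 13 untreated windows were 6 in coding sequence, 6 in the 3′ UTR and 1 at a stop codon, and none had an intron annotation. Their 3′ UTR share of 46.2% (exact interval 19.2 to 74.9) stands beside 67.6% over the list. The arsenic list had 25 coding windows of 33 (75.8%, 57.7 to 88.9), beside 25.1% of all windows, and 1 window in the 3′ UTR, beside 45.5%. An intron was among the annotations of 5 of these 33 windows (15.2%), as in CCT5 at chr5:10254674-10254765. In both cytoplasmic lists none of the CCT windows had a splice site as its leading annotation.

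Without treatment CCT3 had 6 of the 13 windows, all in the last part of the gene. Its 3 windows in the 3′ UTR held 26, 34 and 61 IP reads and 2, 3 and 18 input reads. CCT4 had 4, with the highest value of the 13 at a coding window, chr2:61880286-61880339 (27 IP reads, 1 input read, replicates 3.36 and 4.82). CCT2, CCT5 and CCT7 each had 1, with 17, 25 and 37 IP reads. Counts were thus low, and 2 of the 5 genes were left with a window at q under 0.05 in a replicate.

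TCP1, CCT6A and CCT8 were listed in the cytoplasm with arsenic alone, which was so for 42.9% of the 3182 genes in either cytoplasmic list. CCT7, the eta subunit, had 9 arsenic windows and CCT3 had 7. The highest CCT window was a coding window of CCT3 at chr1:156310624-156310689, with 45 IP and 3 input reads and replicates at 4.89 and 7.92. CCT7 at chr2:73240490-73240543 had 49 IP and 10 input reads, with replicates at 3.56 and 8.62. Replicates of CCT windows lay a median of 1.99 apart in this list, beside 1.02 over all its windows. A mean log2 of these windows therefore has a wide spread behind it.

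The 5′ UTR held 5 of the 33 arsenic cytoplasmic windows, in TCP1, CCT4 and CCT6A, and none of the untreated ones. Over the arsenic list 17.5% of windows were in the 5′ UTR. The window of TCP1 at chr6:159789547-159789624 had 151 IP and 37 input reads (3.05 and 5.44). CCT4 had 131 and 28 reads at chr2:61888508-61888581 (2.91 and 5.14), and 43 and 6 at chr2:61888582-61888656 (3.90 and 4.55). CCT6A had 70 and 25 at chr7:56051767-56051848 (2.90 and 3.57). In TCP1, CCT4 and CCT6A the most read window of this list lay within 500 bases of the RefSeq gene start, which held for 28.9% of 2354 genes. CAPRIN was listed at the TCP1 and CCT6A windows too (47 IP and 4 input reads, and 25 and 4), and at the 5′ UTR of CCT8 (24 and 2 at chr21:29073591-29073659). In the 5′ UTR of CCT3 at chr1:156338185-156338244, CAPRIN had 23 IP and 6 input reads and G3BP1 28 and 18.

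The messages of many translation genes begin with a run of pyrimidines, so the first 30 bases after the start in the RefSeq promoter table (GRCh38.p14) were read where a listed 5′ UTR window covers them, as it does in 3 genes. The table held 7 of the 8 CCT genes. For CCT4 that start lies downstream of the start of its RefSeq gene record, 61888671. The first 15 bases, in capitals, are the part in which C and T were counted, at any place and not as an unbroken run.
CCT4, chr2:61888627-61888656, minus strand: CTTCTCCGCCTCCGCctcctcccgacgccg
CCT8, chr21:29073619-29073648, minus strand: CCTCGCTTCCTCCGCggtcttccgagcggt
TCP1, chr6:159789573-159789602, minus strand: AGTAGCTCCTGGGACatcgctcgggtacgc
CCT4 and CCT8 each have 13 pyrimidines in those 15 bases, and 2.23% of 35116 RefSeq starts have as many or more. TCP1 has 7, the median of all starts. The windows of TCP1 reach upstream of its RefSeq start, so the annotation of the lists includes a transcript that begins earlier.

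Levels in the arsenic cytoplasmic list stand on a baseline of their own. In CCT windows with an input read, the listed log2 exceeded the log2 of summed IP per summed input reads by a median of 3.0 there. The same median was -0.07 in the untreated cytoplasm, 0.81 and 0.71 in whole cells untreated and with arsenic, 1.07 for CAPRIN and 1.53 for G3BP1. Over all windows with at least 10 input reads it was 3.18 in the arsenic cytoplasm and 0.01 in the untreated one. At these medians a listed log2 of 0 stood for 9.06 input reads per IP read in the former and 1.01 in the latter. The offset also varied between CCT windows of a list. It ran from 1.22 to 4.22 in the arsenic cytoplasm and from -1.33 to 2.08 in untreated whole cells.

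**Figure D4:**
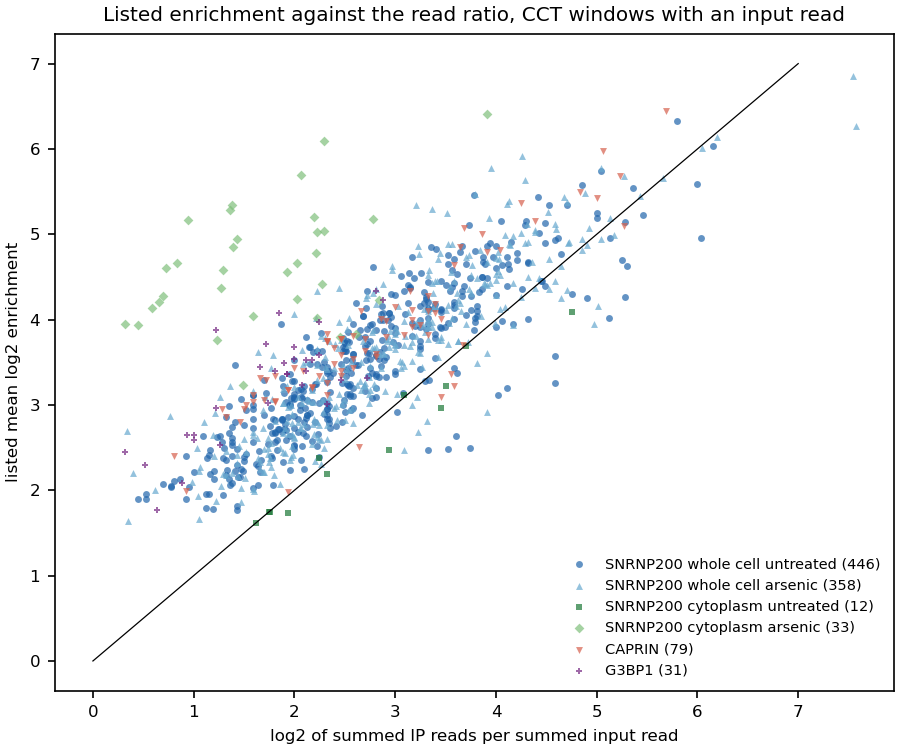
Listed mean log2 enrichment (y axis) against the log2 of summed IP per summed input reads (x axis) of the CCT windows with an input read, by list, with the number of windows in the legend and a line of equal values. The 33 arsenic cytoplasmic windows lie above the line by a median of 3.0, and the 12 untreated cytoplasmic ones lie along it.

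Of the windows shared by both cytoplasmic lists 3 were CCT windows, all in CCT3. At its stop codon, chr1:156309199-156309298, replicates read 1.54 and 1.92 untreated and 4.13 and 5.19 with arsenic. The difference of 2.93 log2 (SE 1.15) missed the threshold among 669 tested windows (limma adjusted p = 0.147, unadjusted p = 0.0235). With a variance trend it passed (limma adjusted p = 0.03, 112 of 669 called), and with the median of all windows removed the difference was 0.92 (limma adjusted p = 0.984). None of the 669 passed (0% called, 196 with an unadjusted p under 0.05), replicate ranges were apart in 71.9%, and the median difference was 2.02. In reads the same window had 46 IP and 12 input untreated, or 3.83 IP per input read (95% interval 2.00 to 7.95), and 122 and 30 with arsenic, or 4.07 (2.71 to 6.28). The read ratios overlap, where the listed values do not. The other 2 windows behaved alike, with listed differences of 3.03 and 2.65 and read ratios of 4.64 against 3.39 and of 4.67 against 4.75.

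Between fractions with arsenic, 14 windows of 7 genes were in both lists, and all 14 had a higher listed log2 in the cytoplasm, by 0.47 to 2.66. Over all 882 shared windows 93.8% were higher there. The CCT3 window at chr1:156310558-156310623 had 56 IP and 12 input reads in both lists, and a listed log2 of 5.03 for the cytoplasm against 2.63 for whole cells. Identical counts thus stood 2.40 apart. In the other windows raw IP reads were fewer in the cytoplasm in 11 of 13. CCT7 at chr2:73250372-73250438, for example, had 36 against 129, with 12 input reads in each. These reads are not corrected for library depth, and the same count was not made over all 882 windows. Of 527 tested windows none passed (0% called, 94 with an unadjusted p under 0.05), and ranges were apart in 61.1% and in 4 of the 7 CCT windows. CCT5, with 3.31 and 6.76 in the cytoplasm against 2.95 and 3.08, differed most among the 7, by 2.03 (SE 1.12, limma adjusted p = 0.278). Without the median difference of 1.31 over all tested windows, the values of CCT6A, CCT7 and CCT8 turned negative.

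Between fractions without treatment, 4 genes shared 7 windows and moved both ways. At chr1:156312041-156312130, a coding window of CCT3, replicates read 1.58 and 1.65 in the cytoplasm and 3.36 and 4.13 in whole cells. The difference of -2.13 (SE 0.55) had a limma adjusted p of 0.259 over 390 windows, and IP reads were 43 against 322. CCT4 at chr2:61880286-61880339 was 1.40 higher in the cytoplasm (3.36 and 4.82 against 2.46 and 2.91, SE 0.65, limma adjusted p = 0.305). CCT7 differed by -0.77 and CCT5 by 0.17. Replicates were apart in CCT3, CCT4 and CCT7 and overlapped in CCT5, beside 50.5% of all windows apart. None of the 390 passed (0% called, 65 with an unadjusted p under 0.05). With a minimum of 20 IP and 10 input reads in both lists, CCT3 passed (limma adjusted p = 0.00144). It was 1 of 18 windows called among the 96 tested, of which 3 were higher in the cytoplasm. The median difference over the 96 was -0.54.

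Whether arsenic moved the fractions differently could be tested in 70 windows listed in all 4 SNRNP200 experiments, of which 1 was a CCT window, CCT3 at chr1:156310558-156310623. Its arsenic difference was 3.37 log2 larger in the cytoplasm (limma adjusted p = 0.144, unadjusted p = 0.0246), and none of the 70 passed. It carries the baseline described above.

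CAPRIN windows covered the CCT messages mostly in coding sequence. Of 114 windows 83 were coding (72.8%, exact interval 63.7 to 80.7), beside 43.5% of all CAPRIN windows, and 18 were in the 3′ UTR (15.8%, 9.63 to 23.8), beside 34.8%. A further 4 lay at start codons, 3 at stop codons and 4 in the 5′ UTR. CCT3 had 20 windows, CCT7 19, CCT4 18, CCT6A 17 and CCT5 15. TCP1 and CCT2 had 9 each and CCT8 had 7. The range between replicates was narrow, with a median of 0.47 log2, beside 0.46 over the list. No input read was found in 35 of the windows, so the listed value of those has no read ratio behind it.

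The highest CCT window of the CAPRIN list was a coding stretch of CCT7 at chr2:73249085-73249179, with 324 IP reads, no input read and replicates at 9.20 and 9.45. The same window was also listed for G3BP1 (26 IP and 6 input reads, 3.06 and 4.0), for SNRNP200 in the arsenic cytoplasm (72 and 19, 3.65 and 5.45) and in untreated whole cells (mean 2.94). The next CCT window was in the 3′ UTR of CCT3 at chr1:156309045-156309121, with 84 IP reads, no input read and replicates at 7.0 and 7.62. The most read CAPRIN window of CCT3, chr1:156311114-156311195 in coding sequence, had 200 IP and 6 input reads. TCP1 had its highest in coding sequence at chr6:159779895-159779990 (63 IP reads, no input read, 7.08 and 7.21). CCT5 had its highest value in the 3′ UTR at chr5:10264878-10264971 (51 IP reads, no input read). The most read window of CCT2, CCT6A and CCT8 was likewise in the 3′ UTR, and that of CCT4 and CCT5 was at the start codon. CCT4 had 102 IP and 8 input reads there, at chr2:61888408-61888507.

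G3BP1 windows were coding in 24 of 31 cases (77.4%, exact interval 58.9 to 90.4), beside 47.3% of all G3BP1 windows. CCT3 had 12 and CCT7 9, CCT2 and CCT4 4 each and CCT5 2. Of the 31, 26 were CAPRIN windows as well, 83.9% of the G3BP1 and 22.8% of the CAPRIN windows, beside 55.8% and 10.7% for all windows. The highest CCT window was that of CCT2 at chr12:69593510-69593561, with 14 IP and 2 input reads (3.59 and 5.08). The G3BP1 list combines a set of 1254 windows called in up to 2 replicates and a set of 1988 called in up to 3, although the labels give 2 replicates. Of the CCT windows 2 were in the former and 29 in the latter, 7 of them called in 3 replicates.

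**Figure D5:**
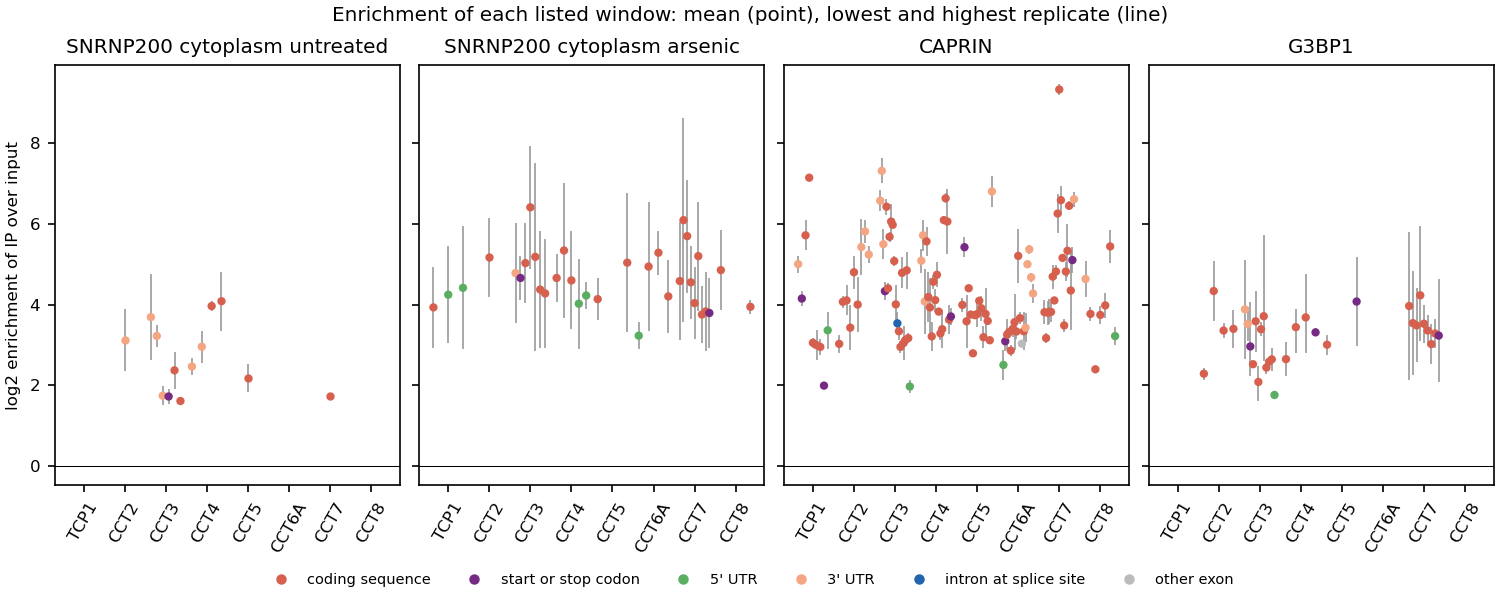
Log2 enrichment of IP over input (y axis) of every CCT window in the cytoplasmic, CAPRIN and G3BP1 lists, by gene, with the mean as a point coloured by feature and a line from the lowest to the highest replicate. The lines are longest in the arsenic cytoplasm (median 1.99) and short for CAPRIN (median 0.47), where 1 CCT7 window stands at 9.32.

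In the set of G3BP1 windows with up to 2 replicates, the start codon windows of CCT4 and CCT5 could be compared with CAPRIN. CCT4 read 3.49 and 3.92 for CAPRIN and 3.22 and 3.41 for G3BP1, a difference of 0.39 (SE 0.52, limma adjusted p = 0.595). CCT5, in the window printed above, read 5.18 and 5.66 against 2.98 and 5.17, a difference of 1.35 (SE 0.75, limma adjusted p = 0.215). Both pairs of ranges were apart, that of CCT5 by little, as in 68.7% of 367 tested windows. Limma called 30.2% of the 367 and neither CCT window. In the set with up to 3 replicates, 40.9% of 413 were called, 164 of 169 in favour of CAPRIN, with a median difference of 1.14. CCT3, CCT4 and CCT7 were among them. The lowest and highest of up to 3 replicates entered there. For each gene the tested window was the shared 1 with the most IP reads summed over both lists. The compared reads thus chose the window, and CAPRIN gave most of them for CCT3 and CCT7. CCT7 at its highest CAPRIN window was 5.80 higher (SE 0.57, limma adjusted p = 1.35e-05). That window held 324 IP reads and no input read for CAPRIN, and 26 and 6 for G3BP1. CCT3 at chr1:156311114-156311195 was 3.92 higher (SE 0.57, limma adjusted p = 0.000152) and CCT4 at chr2:61877393-61877453 was 3.29 higher (SE 0.58, limma adjusted p = 0.000547). CCT2 and CCT5 did not pass, at -0.23 and 0.98. CAPRIN had no input read at the windows of CCT4 and CCT2 either. The lists also differ in baseline. In windows with at least 10 input reads, listed log2 exceeded the log2 read ratio by 1.07 (CAPRIN) and 1.66 (G3BP1), as medians.

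Most windows were in 1 or 2 lists. Of the 532 windows, 168 were in 1 list, 282 in 2, 54 in 3, 25 in 4 and 3 in 5. The 3 were the stop codon of CCT3, its coding window at chr1:156310558-156310623, and a coding window of CCT4 at chr2:61877454-61877514. CCT4 there had a listed mean log2 of 2.14 and 2.89 in whole cells untreated and with arsenic, 5.34 in the arsenic cytoplasm, 6.06 for CAPRIN and 3.68 for G3BP1. Of the 33 arsenic cytoplasmic windows, 26 were also CAPRIN windows, 78.8% of the former and 22.8% of the latter, beside 35.4% and 15.2% for all windows.

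Cofactors of the chaperonin and the proteins it folds were counted in the same lists. Of 14 cofactors (prefoldin subunits, phosducin-like proteins and tubulin cofactors), 13 were listed in whole cells untreated and with arsenic, 1 and 3 in the cytoplasm untreated and with arsenic, 10 for CAPRIN and 1 for G3BP1. In the same order of lists, 92.4%, 83.8%, 18.6%, 25.2%, 44.6% and 12.6% of all 9792 genes were listed. TBCA, a tubulin cofactor, was the 1 in the untreated cytoplasm, with 31 IP and 2 input reads in a 3′ UTR window, and PFDN5, TBCA and TBCD were the 3 with arsenic. Among 13 clients (actins, tubulins, CDC20 and FZR1), 12 were listed in whole cells untreated and 13 with arsenic, 7 in the untreated cytoplasm, 8 with arsenic, 13 for CAPRIN and 7 for G3BP1. The alpha tubulin TUBA1B had 12 CAPRIN windows with a highest log2 of 9.36, near the 9.32 of CCT7. Near-identical tubulin and actin copies can share reads.

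By the number of windows over the 6 lists, CCT5 was the member closest to the mean of the 8, at a distance of 0.71 (Euclidean, on log2 of the number plus 1), and CCT3 the farthest, at 2.89. Of 9093 protein-coding genes, the nearest that are no CCT genes were HSPA4 (0.64), FKBP4 (0.77), RCC1 (0.80), NOLC1 (0.90) and UHRF1 (0.96).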

How the data were processed

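Reads were trimmed by the authors (fastp 0.11.5) and aligned to hg38 (STAR 2.7.6), per the submitters' processing notes. The window caller was not given in the sources used here. Columns of the 6 deposited lists carry no names and were identified from their values. The deposited counts are raw input and IP reads per window, summed over replicates by the authors. The deposited log2 enrichment is that of the lowest, mean and highest replicate. Its offset from the read ratio differs between lists and between windows of a list. Of the deposited p-values and q-values each window has a highest and a lowest one, and the deposited GC content is a fraction. The remaining column is the deposited number of replicates.

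Windows were taken by gene symbol, and each gene was placed by the RefSeq GRCh38.p14 gene table. Gene shares were read against the 9792 genes in any list. Differences were tested with limma 3.58.1 in R 4.3.3 (unpaired, two-sided, Benjamini-Hochberg over all windows tested), on 1 window per gene, and limma was tested on simulated data. Tables were made with Python 3.11.15, pandas 2.3.3 and scipy 1.17.1, which gave the exact binomial intervals at 95%. They cover counting error only, and those of window shares count neighbouring windows of a gene as independent. Named windows are, for each gene and list, the highest and the most read, with any window of the cytoplasmic, CAPRIN and G3BP1 lists. The genes and lists were chosen with earlier results of these data known. Alternatives were a variance trend, centring, means over windows, a stricter q and a read minimum.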

Additional observations from a re-analysis of the deposited data

How the results depend on the processing

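No paired analysis was possible because the lists give the lowest and highest replicate without replicate numbers, and for the same reason no replicate could be left out. The number of CCT genes in the untreated cytoplasm fell from 5 to 2 with q under 0.05, with at least 2 windows or with 20 IP and 10 input reads; that read minimum left 2 genes for CAPRIN and 3 for G3BP1. Weighted by IP reads, coding sequence took 41% of the whole-cell windows untreated and 35.1% with arsenic, and with q under 0.05 splice sites took 46.4% with arsenic. The variance trend called 1 CCT window with arsenic in the cytoplasm (CCT3, 2.93), the read minimum 1 between untreated fractions (CCT3, -2.13), and the G3BP1 set with up to 3 replicates 3. With the mean of shared windows, whole-cell differences with arsenic changed sign for CCT2 (-0.09), CCT3 (-0.03) and CCT4 (0.25), and with the read minimum, which changes the window, for CCT5 (0.67); CCT8 moved to -1.69 there. With the median removed, the arsenic difference between fractions changed sign for CCT6A (-0.68), CCT7 (-0.83) and CCT8 (-0.09). The median differences removed were 0.10, 2.02, 0.12, 1.31 and -0.47 in the order of the comparisons. Limma called 112 windows over all genes with the variance trend in the cytoplasm, 62 with the read minimum and 30 with the mean of windows, against 0; between untreated fractions the read minimum called 18, and between arsenic fractions the trend called 3 and the read minimum 1. For CAPRIN against G3BP1 it called 111 windows, 41 of them higher for CAPRIN, and 91 with the median removed, 55 of them higher; the read minimum called 21 of 63. Apart from the smaller numbers of windows tested, the cause was not tested. With q under 0.05 no CCT window was left between the cytoplasmic lists, and with the read minimum none between CAPRIN and G3BP1. Of the other 177 values, 92 were differences of a gene, and these stayed on their side of the threshold. They kept their direction except CCT7 with the mean of windows and CCT6A with the read minimum, both 0.0 in whole cells. The remaining 85 were counts and shares, which have no direction. Each of these shares lay inside the exact interval of the share without the alternative. The counts were unchanged, except that CCT genes in the arsenic cytoplasm went from 8 to 7 with at least 2 windows.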
